A study of Rattus norvegicus with 9 samples.

Results

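The 10 genes described here are an injury-response and scar-matrix set measured in rat brain tissue by RNA sequencing. They were taken by Ensembl ID from a table of 32883 rat genes, and all 10 were found and passed the filter on low values. The set holds 4 injury-response genes, Lcn2 (ENSRNOG00000013973), Timp1 (ENSRNOG00000010208), Spp1 (ENSRNOG00000043451) and Cd44 (ENSRNOG00000006094). It also holds 3 fibrillar collagen genes, Col1a1 (ENSRNOG00000003897), Col1a2 (ENSRNOG00000011292) and Col3a1 (ENSRNOG00000003357), and 3 genes of other matrix proteins, Fn1 (ENSRNOG00000014288), Sparc (ENSRNOG00000012840) and Dcn (ENSRNOG00000004554). The groups were rats with middle cerebral artery occlusion given Panax notoginseng (PN; 3 libraries, 3A, 6A and 7A), rats with the occlusion alone (MCAO; 3B, 6B and 7A) and sham-operated rats (sham; 4B, 5B and 9A). Middle cerebral artery occlusion is a surgical model of ischaemic stroke, and the PN rats carried it too. Panax notoginseng is a plant of traditional Chinese medicine with saponin-rich roots. The sources used here do not give the strain, sex, age, brain region, hemisphere, time after occlusion, dose or any vehicle for the MCAO rats. They do not state that each library came from a separate animal, so the p-values below measure the spread between these libraries.

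After an ischaemic lesion, astrocytes and infiltrating or resident macrophages around the core switch on secreted injury proteins, and fibroblasts of the meninges and vessel walls lay down fibrillar collagen that forms the stromal part of the scar. Type I collagen is a trimer of Col1a1 and Col1a2 chains and type III collagen a trimer of Col3a1 chains, and the types assemble into mixed fibrils. Fibronectin and SPARC bind to these fibres and to cells, and decorin coats the fibrils and binds TGF beta.

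Values are FPKM, which are scaled to transcript length and library size. The sum of FPKM ran from 387893 to 445693 over the 9 libraries, and the steps of the lowest values put their relative depth between 1 and 1.33 times that of MCAO 3B. The number of reads is unknown. No other gene ID could be paired with a symbol, so levels of cell type markers outside the set, the tissue label included, were not examined. In such bulk tissue, more cells of a type and more RNA per cell cannot be told apart.

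The clearest arrangement in the set was in the fibrillar collagens, which lay higher in every library with an occlusion than in any sham library. Spp1 had the widest range of the 10 genes and was highest in PN 6A and PN 3A. None of the 10 genes passed the adjusted threshold of 0.05 in any comparison. Levels of the set varied more between libraries of 1 group than those of most genes, and PN 6A was the highest of the 9 libraries in 8 of the 10 genes.

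**Figure D1:**
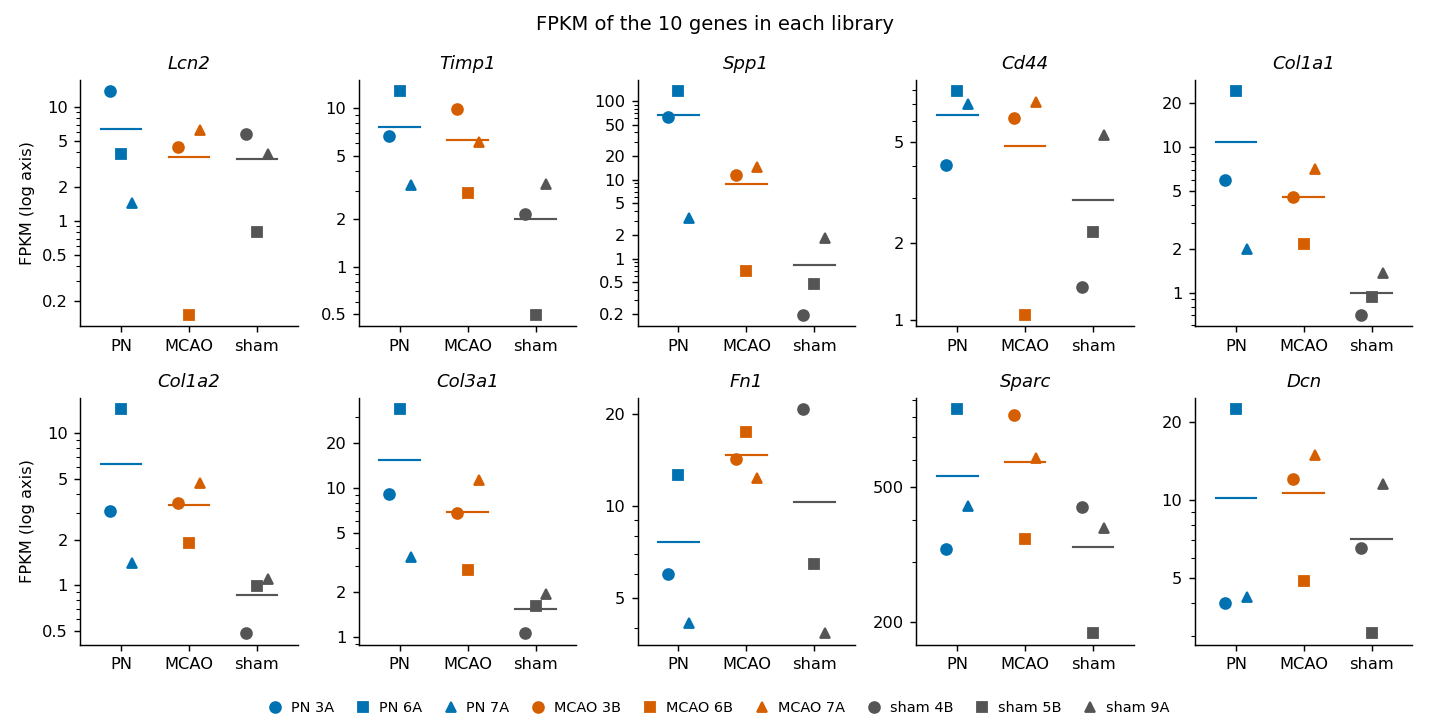
FPKM of each gene (log axis, its own range per panel) in the 3 PN, 3 MCAO and 3 sham libraries. Points are libraries and the horizontal lines are arithmetic group means. In the panels of Col1a1, Col1a2 and Col3a1 all PN and MCAO points lie above all sham points, and in 8 panels the highest point is PN 6A.

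Spp1 encodes osteopontin, a secreted matrix protein and cytokine made by activated microglia and macrophages. It had 61.7, 134 and 3.26 FPKM in PN libraries 3A, 6A and 7A, 11.4, 0.692 and 14.6 FPKM in MCAO libraries 3B, 6B and 7A, and 0.194, 0.473 and 1.80 FPKM in sham libraries 4B, 5B and 9A. All PN libraries lay above all sham libraries, and MCAO 6B lay within the sham range. Within PN the highest value was 41.1 times the lowest, and within MCAO 21.0 times.

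Timp1, a secreted inhibitor of matrix metalloproteinases, had 6.70, 12.8 and 3.26 FPKM in PN libraries 3A, 6A and 7A, 9.86, 2.89 and 6.07 FPKM in MCAO libraries 3B, 6B and 7A, and 2.15, 0.497 and 3.33 FPKM in sham libraries 4B, 5B and 9A. Only sham 9A reached into the range of the occlusion groups, above the lowest PN and the lowest MCAO library.

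Lcn2 encodes lipocalin 2, an iron-siderophore binding protein that reactive astrocytes secrete. It had 13.9, 3.85 and 1.45 FPKM in PN libraries 3A, 6A and 7A, 4.50, 0.1504 and 6.34 FPKM in MCAO libraries 3B, 6B and 7A, and 5.81, 0.800 and 3.85 FPKM in sham libraries 4B, 5B and 9A. The 3 groups overlapped fully, and sham 4B lay above 4 of the 6 occlusion libraries.

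Cd44, the cell-surface receptor for hyaluronan and osteopontin, had 4.06, 7.90 and 7.04 FPKM in PN libraries 3A, 6A and 7A, 6.18, 1.05 and 7.14 FPKM in MCAO libraries 3B, 6B and 7A, and 1.34, 2.22 and 5.31 FPKM in sham libraries 4B, 5B and 9A. MCAO 6B was the lowest of the 9 libraries for Cd44 and for Lcn2, and the lowest occlusion library for Spp1 and Timp1.

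The 250 bases before the RefSeq start (GRCr8) of these 4 injury-response genes are shown because, of these 4, Spp1 differed most from sham and Lcn2 least. The windows are chr3:36081781-36082030 for Lcn2, chrX:3771123-3771372 for Timp1, chr14:5619805-5620054 for Spp1 and chr3:109699425-109699674 for Cd44, all on the minus strand and written 5′ to 3′. Capitals mark matches, on either strand, to TATAAA (letters of the TATA box) and TGNGGT (a looser pattern than the RUNX core). TGNGGT takes any base at N, so a marked stretch need not be a RUNX core. No capitals stand for CCAAT (the CCAAT box) or TGANTCA (AP-1), which were also searched on both strands and have no match in these 4 windows.
Lcn2: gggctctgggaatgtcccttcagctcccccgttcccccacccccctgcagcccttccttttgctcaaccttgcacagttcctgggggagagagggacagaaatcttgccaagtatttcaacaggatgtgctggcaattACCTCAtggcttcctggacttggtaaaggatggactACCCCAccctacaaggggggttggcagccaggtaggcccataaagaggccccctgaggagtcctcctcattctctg
Timp1: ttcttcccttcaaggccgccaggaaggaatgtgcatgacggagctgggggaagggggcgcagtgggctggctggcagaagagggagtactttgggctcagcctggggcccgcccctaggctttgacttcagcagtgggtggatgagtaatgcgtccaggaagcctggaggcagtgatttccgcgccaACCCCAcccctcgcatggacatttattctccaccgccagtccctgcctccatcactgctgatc
Spp1: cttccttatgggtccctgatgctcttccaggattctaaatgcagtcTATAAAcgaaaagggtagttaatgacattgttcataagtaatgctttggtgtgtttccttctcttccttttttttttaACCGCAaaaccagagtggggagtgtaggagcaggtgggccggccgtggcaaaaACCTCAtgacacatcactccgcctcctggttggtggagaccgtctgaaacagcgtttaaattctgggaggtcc
Cd44: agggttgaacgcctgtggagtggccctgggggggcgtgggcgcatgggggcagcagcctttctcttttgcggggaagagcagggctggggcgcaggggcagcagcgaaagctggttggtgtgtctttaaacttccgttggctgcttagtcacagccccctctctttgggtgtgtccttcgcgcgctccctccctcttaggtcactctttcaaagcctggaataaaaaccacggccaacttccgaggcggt

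Promoter windows were held in the RefSeq table for 6 of the 10 genes. Spp1 had matches to TGNGGT at 126 and 73 bases before the start and one to TATAAA at 204, Lcn2 had matches to TGNGGT at 112 and 76, and Timp1 had one at 63. In the same window Col1a2 had CCAAT at 221 and TATAAA at 170 bases before the start, and Sparc had TGNGGT at 205. Of 33469 rat promoter windows of this length, 41.0% held TGNGGT, 34.0% CCAAT, 12.9% TATAAA and 6.34% TGANTCA, so such matches are common. These are matches of letters and not evidence of binding.

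Col1a1, the main chain of type I collagen, had 5.98, 24.4 and 2.01 FPKM in PN libraries 3A, 6A and 7A, 4.54, 2.15 and 7.07 FPKM in MCAO libraries 3B, 6B and 7A, and 0.705, 0.932 and 1.36 FPKM in sham libraries 4B, 5B and 9A. Col1a2, the other chain, had 3.07, 14.3 and 1.40 FPKM in the same PN libraries, 3.47, 1.89 and 4.71 FPKM in the MCAO libraries and 0.485, 0.986 and 1.11 FPKM in the sham libraries. Col3a1, which forms type III collagen, had 9.16, 33.6 and 3.45 FPKM in PN, 6.85, 2.81 and 11.2 FPKM in MCAO and 1.07, 1.61 and 1.95 FPKM in sham, in the same order. For all 3 genes PN 6A was highest, PN 7A and MCAO 6B were the lowest of the occlusion libraries, and no sham library reached any occlusion library. Their levels were low for this tissue: the mean log2(FPKM + 1) over the 9 libraries placed Col1a2 at the 17.8th, Col1a1 at the 23.6th and Col3a1 at the 31.7th percentile of the 15051 genes tested.

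Across libraries of very different level, the ratio of Col3a1 to Col1a1 stayed similar, between 1.31 in MCAO 6B and 1.73 in sham 5B. That of Col1a1 to Col1a2 varied more. Col1a1 over Col1a2, in FPKM, was 1.69 ± 0.257 in PN, 1.32 ± 0.182 in MCAO and 1.21 ± 0.255 in sham (SD, n = 3 each), with 0.946 in sham 5B and 1.95 in PN 3A at the ends. Col3a1 over Col1a1 was 1.54 ± 0.169 in PN, 1.47 ± 0.147 in MCAO and 1.56 ± 0.152 in sham (SD, n = 3 each). Across the 9 libraries, Col1a1 and Col1a2 had a Pearson r of log2(FPKM + 1) of 0.989 (exact permutation p = 1.38e-05, 2.76e-05 adjusted over the 4 pairs tested, two-sided) and a Spearman rho of 0.983 (exact permutation p = 4.96e-05, adjusted 9.92e-05). For Col1a1 and Col3a1 r was 0.997 (exact permutation p = 5.51e-06, adjusted 2.2e-05) and rho 0.983 (exact permutation p = 4.96e-05, adjusted 9.92e-05). Without PN 6A and MCAO 7A, the libraries farthest from the Col1a1 median, r was 0.963 (exact permutation p = 0.000992) and 0.993 (exact permutation p = 0.000397) over 7 libraries. Since sham and occlusion libraries lie apart, r was also taken over the 6 occlusion libraries alone, a choice made after the values were seen, and was 0.985 (exact permutation p = 0.00417) and 0.995 (exact permutation p = 0.00278). Of the 15050 other genes tested, Col3a1 and Col1a2 ranked 1 and 2 by r with Col1a1, and Spp1 ranked 18 with an r of 0.939. These ranks are a description, since all values of a library share its depth and dissection. The permutations ignore the groups, so differences between groups also enter their p-values.

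**Figure D2:**
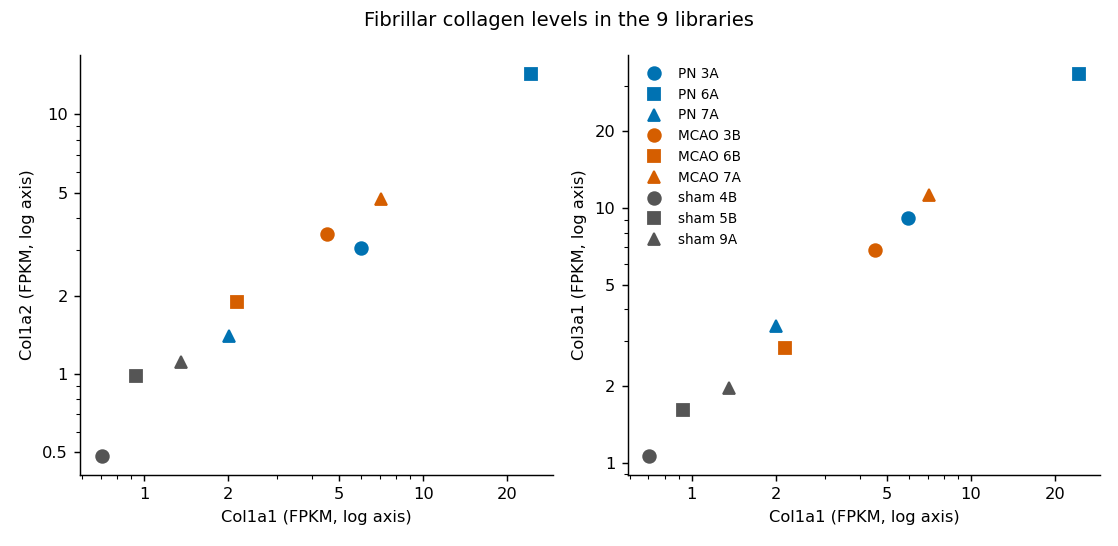
Col1a2 (left) and Col3a1 (right) against Col1a1 in FPKM on log axes, 1 point per library. Points lie along a line in both panels, with the 3 sham libraries at the low end and PN 6A alone at the high end.

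Fn1 encodes fibronectin, a matrix glycoprotein that vessels and fibroblasts deposit and that also leaks from plasma. It had 6.003, 12.7 and 4.16 FPKM in PN libraries 3A, 6A and 7A, 14.3, 17.5 and 12.4 FPKM in MCAO libraries 3B, 6B and 7A, and 20.8, 6.47 and 3.84 FPKM in sham libraries 4B, 5B and 9A. The highest value was in a sham library, and MCAO 6B, low in most genes of the set, was the highest of MCAO. Fn1 had the weakest relation to the collagens, with an r of 0.173 to Col1a1 over the 9 libraries.

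Sparc, a collagen-binding glycoprotein that astrocytes and endothelial cells make in healthy brain, stood far above the others in level, at the 99.6th percentile of genes tested. It had 328, 844 and 437 FPKM in PN libraries 3A, 6A and 7A, 811, 350 and 609 FPKM in MCAO libraries 3B, 6B and 7A, and 436, 185 and 378 FPKM in sham libraries 4B, 5B and 9A. The groups overlapped, with PN 3A and MCAO 6B below 2 of the sham libraries.

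Dcn encodes decorin, a small proteoglycan of meningeal and perivascular fibroblasts that binds collagen fibrils. It had 4.03, 22.3 and 4.23 FPKM in PN libraries 3A, 6A and 7A, 12.1, 4.87 and 14.9 FPKM in MCAO libraries 3B, 6B and 7A, and 6.56, 3.07 and 11.5 FPKM in sham libraries 4B, 5B and 9A. PN 6A was highest, while PN 3A and PN 7A lay below 2 of the 3 sham libraries. Its order therefore differed from that of the collagens, with sham 9A above 3 of the 6 occlusion libraries.

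PN and MCAO differ by the plant treatment and also by the letter in the library codes, whose meaning the labels do not give: A in 3 of 3 PN libraries, 1 of 3 MCAO libraries and 1 of 3 sham libraries. Treatment and letter can be told apart only through MCAO 7A and sham 9A. Of the 10 genes, 0 passed the adjusted threshold, against 0.00664% of all 15051 genes tested (limma, 2-sided, Benjamini-Hochberg). At an unadjusted p under 0.05, 0 of the 10 were higher, against 8.73% of all genes, and 0 were lower, against 4.52%. The PN and MCAO libraries overlapped in all 10 genes, whereas in 13.6% of genes tested every PN library exceeded every MCAO library and in 6.69% every one was below. Leaving out PN 6A put Fn1 and Dcn lower in PN without overlap, against 14.2% of all genes. Leaving out MCAO 7A put Fn1 lower, against 13.4%, and leaving out PN 7A put Spp1 higher, against 18.2%. The difference was positive for 7 genes and negative for 3, with a median log2 difference of 0.44, against 0.07 over all genes tested.

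The largest difference from MCAO was that of Spp1, with a mean of 66.3 ± 65.5 FPKM over PN libraries against 8.87 ± 7.27 FPKM over MCAO libraries (SD, n = 3 each) and a log2 difference of 2.26 (SE 1.22, limma, adjusted p = 0.45). Without PN 7A, the lowest PN library, it was 3.74 (limma, adjusted p = 0.347), and without PN 6A it was 1.25. With the code letter as a covariate it was 1.31 (limma, unadjusted p = 0.402), and with array weights, which count PN 7A most, 0.030 (limma, unadjusted p = 0.98), so its size depended on the libraries and on their weights. Fn1 had a mean of 7.63 ± 4.50 FPKM over PN libraries against 14.7 ± 2.58 FPKM over MCAO libraries (SD, n = 3 each), and its log2 difference was -0.98, 95% interval -2.16 to 0.21 (limma, adjusted p = 0.45). It was -0.40 with the letter as a covariate and -1.46 with array weights (limma, adjusted p = 0.0919). Col1a1 differed by 0.64 (95% interval -0.86 to 2.14), Col1a2 by 0.34 (-0.98 to 1.66) and Col3a1 by 0.70 (-0.81 to 2.21) on the log2 scale. Without PN 6A these became -0.18, -0.42 and -0.089. The 95% interval for Spp1 ran from -0.48 to 5.01.

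MCAO and sham differ by the occlusion. The collagens were higher in all 3 MCAO libraries than in any sham library, which makes 3 of the 10 genes, against 8.59% of all genes tested, and 0 of the 10 were lower without overlap, against 11%. The collagens rise and fall together (r of 0.982 to 0.997), so they are not 3 separate observations. In sham, Col1a1 and Col1a2 reached 1 FPKM only in 9A, so they passed the filter only because of occlusion libraries. Col1a1 had a mean of 4.59 ± 2.46 FPKM over MCAO libraries against 0.9996 ± 0.333 FPKM over sham libraries, Col1a2 of 3.36 ± 1.41 FPKM in MCAO against 0.861 ± 0.331 FPKM in sham, and Col3a1 of 6.97 ± 4.22 FPKM in MCAO against 1.54 ± 0.449 FPKM in sham (SD, n = 3 each). Their log2 differences were 1.39, 1.19 and 1.51, and none passed (limma, adjusted p = 0.477, 0.49 and 0.452). Of the 10 genes 0 passed the adjusted threshold, against 0.00664% of all genes. At an unadjusted p under 0.05, 1 gene was higher, against 4.87% of all genes, and 0 were lower, against 6.25%. This 1 gene was Timp1, with a mean of 6.27 ± 3.49 FPKM over MCAO libraries against 1.99 ± 1.42 FPKM over sham libraries (SD, n = 3 each) and a log2 difference of 1.29 (SE 0.54, limma, unadjusted p = 0.0403, adjusted p = 0.437). This count used a spread shared with the PN libraries. Fitted on the 6 MCAO and sham libraries alone, 5 genes were under 0.05, Timp1, Spp1 and the collagens (limma, smallest adjusted p = 0.251). With a pseudocount of 0.1 there were 4, and with array weights or no filter 0. The share of all genes under 0.05 was not counted in these other fits, so their counts cannot be set against it. The difference was positive for 9 genes and negative for Lcn2 (-0.12), with a median of 1.01, against -0.01 over all genes tested.

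The count of genes without overlap depended on MCAO 6B. Without it, 8 of the 10 genes, all but Lcn2 and Fn1, lay higher in both remaining MCAO libraries than in any sham library, where 15.2% of all genes did. A left-out library can only keep or raise this count. Without MCAO 3B or MCAO 7A it stayed at the 3 collagens, against 11.1% and 15.2% of all genes. Leaving out a sham library gave 3 to 5 genes, against 12.2% to 15.1% of all genes.

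PN and sham differ by the occlusion, the treatment and the code letter, which is A in 3 of 3 PN libraries and 1 of 3 sham libraries. All PN libraries lay above all sham libraries in 4 of the 10 genes, Spp1 and the 3 collagens, against 6.18% of all genes tested, and in 0 did they lie below, against 2.53%. In sham, Col1a1, Col1a2 and Spp1 reached 1 FPKM only in 9A, so they passed the filter only because of occlusion libraries. The collagens also rise and fall together (r of 0.982 to 0.997). Counts of these genes against sham, by overlap or by p, are therefore a description. Of the 10 genes 0 passed the adjusted threshold, against 0.0199% of all genes. At an unadjusted p under 0.05, 5 genes were higher, against 3.4% of all genes, and 0 were lower, against 0.85%. These were Spp1, Timp1 and the collagens. With the code letter as a covariate 0 of the 10 genes were under 0.05 (limma, unadjusted p = 0.0545 for Spp1 and 0.0708 for Col3a1), and with array weights also 0 (limma, unadjusted p = 0.147 for Spp1 and 0.108 for Col3a1). The share of all genes in these fits was not counted. The median log2 difference over the 10 genes was 1.23, against 0.04 over all genes tested.

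Spp1 had the largest difference from sham, with a mean of 66.3 ± 65.5 FPKM over PN libraries against 0.823 ± 0.860 FPKM over sham libraries (SD, n = 3 each) and a log2 difference of 4.28 (SE 1.22, limma, unadjusted p = 0.00627, adjusted p = 0.974). It ranked 43 of 15051 genes by p. Col3a1 had a mean of 15.4 ± 16.04 FPKM over PN libraries against 1.54 ± 0.449 FPKM over sham libraries (SD, n = 3 each) and a log2 difference of 2.21 (SE 0.67, limma, unadjusted p = 0.00897, adjusted p = 0.974). The differences of Col1a1, Col1a2 and Timp1 were 2.03, 1.53 and 1.49 (limma, unadjusted p = 0.013, 0.0278 and 0.0218, each with an adjusted p of 0.974). Without PN 6A the differences of Spp1, Col1a1, Col1a2 and Col3a1 were 3.26, 1.21, 0.77 and 1.42. MCAO and PN are each set against the same sham libraries here, so their differences from sham are not independent.

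**Figure D3:**
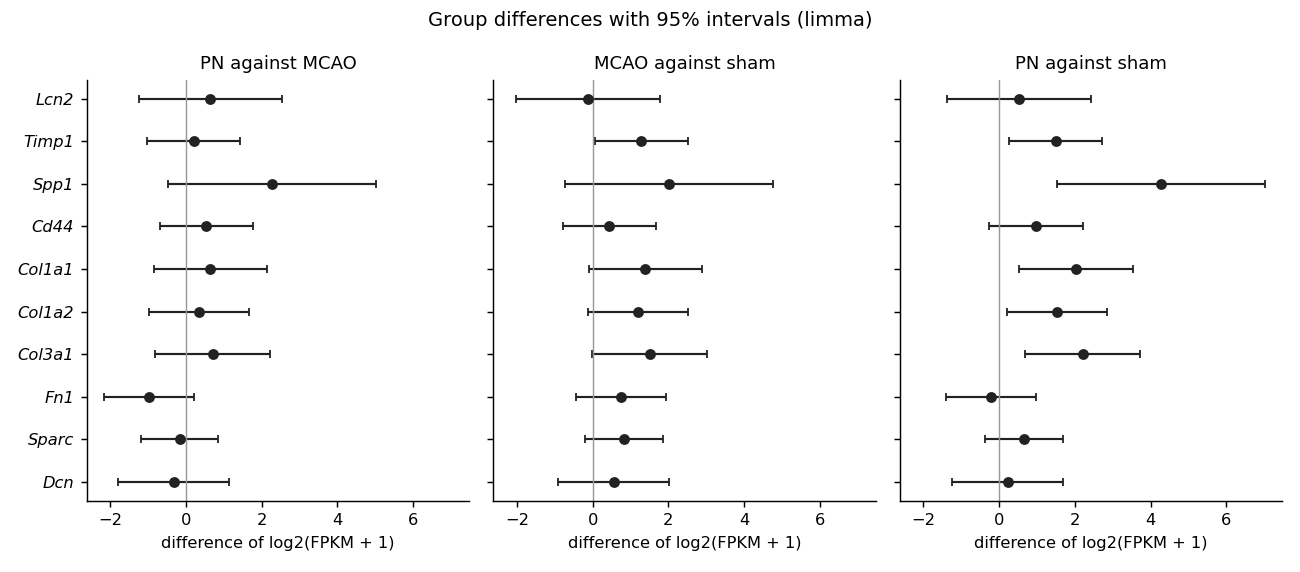
Difference of mean log2(FPKM + 1) between groups for each gene, with 95% intervals from the limma fit of all 9 libraries, for PN against MCAO, MCAO against sham and PN against sham. In PN against MCAO every interval spans 0, in MCAO against sham that of Timp1 lies above 0 before adjustment, and in PN against sham those of Timp1, Spp1, Col1a1, Col1a2 and Col3a1 lie above 0 before adjustment.

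After these values were seen, the MCAO and PN libraries were also set together against sham. The code letter is uneven here too, with A in 3 of 3 PN, 1 of 3 MCAO and 1 of 3 sham libraries. All 6 occlusion libraries lay above all 3 sham libraries in 3 of the 10 genes, the collagens, against 1.51% of all genes tested. The collagens rise and fall together (r of 0.982 to 0.997), so they are not 3 separate observations. The set was chosen with earlier results of these data known, and Col1a1 and Col1a2 passed the filter only because of occlusion libraries. This count is therefore a description. Leaving out a library cannot undo the lack of overlap for the collagens. Without MCAO 6B Spp1 joined them, against 2.94% of all genes, and without sham 9A Spp1 and Timp1 did, against 5.57%. The log2 differences were 1.71 for Col1a1, 1.36 for Col1a2 and 1.86 for Col3a1 (limma, unadjusted p = 0.015, 0.0248 and 0.0104, adjusted p = 0.716, 0.724 and 0.716). At an unadjusted p under 0.05, 5 of the 10 genes were higher, against 4.33% of all genes, again the collagens, Spp1 and Timp1. With array weights 0 were, and with the letter as a covariate 4, fits in which the share of all genes was not counted.

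Spread within groups was wide for the whole set. The SD within groups of log2(FPKM + 1) was 1.86 for Spp1, 1.26 for Lcn2 and between 0.66 (Sparc) and 1.0014 (Col3a1) for the others, against a median of 0.32 over all genes tested. Among the 1000 genes nearest in level, Spp1 was at the 99.5th percentile of this SD, and the lowest of the 10 genes, Cd44, at 91.1. Col1a1 differed 12.1-fold between the highest and lowest PN library and 1.93-fold between the sham libraries. Over the 14481 genes tested that were above 0 in every library, the median of that ratio was 1.59 in PN, 1.48 in MCAO and 1.51 in sham. The standard error of a group difference had a median of 0.62 over the 10 genes and 0.26 over all genes tested.

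**Figure D4:**
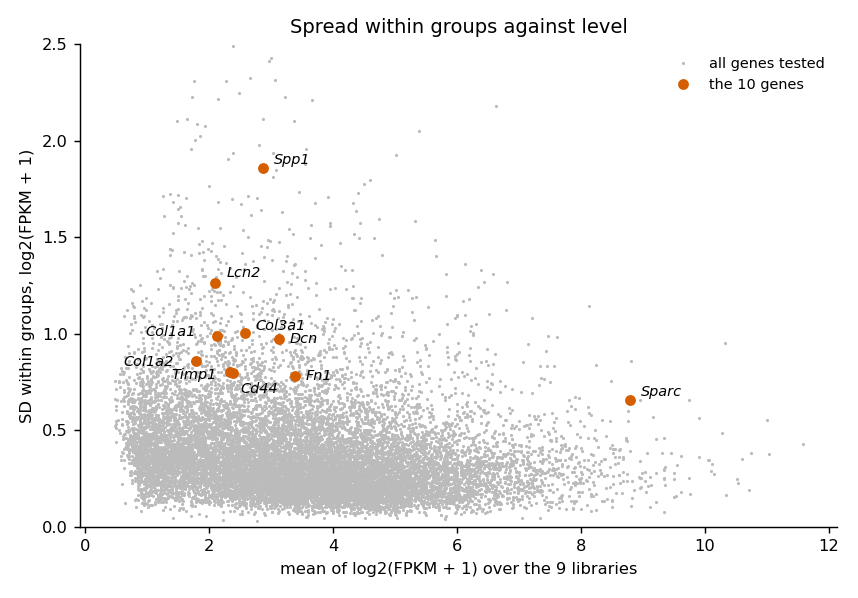
SD within groups against mean level, both of log2(FPKM + 1), for the 15051 genes tested (grey) and the 10 genes (orange); the vertical axis ends at 2.5 and a few genes above it are not drawn. All 10 genes lie in the upper part of the cloud, with Spp1 at 1.86 the highest of them.

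Single libraries stood at the ends in many genes of the set. PN 6A was the highest library in 8 of the 10 genes but in 11.4% of all genes tested, PN 3A in 1 (Lcn2) but in 21.9% of all genes, and sham 4B in 1 (Fn1) and in 12.7%. The lowest library was MCAO 6B in 2 genes and in 16.2% of all genes, sham 4B in 4 and in 6.45%, sham 5B in 3 and in 16.1%, and sham 9A in 1 and in 6.91%. Over all genes PN 3A was most often at either end, lowest in 22.1%, though it was lowest in 0 of the 10. What sets PN 6A apart was not tested.

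Beyond the collagens, the other genes of the set followed them to different degrees. Timp1 had an r of 0.861 to Col1a1 and 0.867 to Sparc, Spp1 0.939 to Col1a1 and 0.949 to Col3a1, and Sparc 0.841 to Dcn. Fn1 had r between -0.405 (Cd44) and 0.413 (Sparc) with the 9 others. These are descriptions over 9 libraries that share their groups and depth. Of the injury-response pairs tested, Timp1 and Lcn2 had an r of 0.532 (exact permutation p = 0.139, adjusted 0.139) and a rho of 0.500 (exact permutation p = 0.178), and Timp1 and Cd44 an r of 0.662 (exact permutation p = 0.0546, adjusted 0.0728) and a rho of 0.717 (exact permutation p = 0.0369, adjusted 0.0492). Without PN 6A and sham 5B, the libraries farthest from the Timp1 median, these r were 0.474 (exact permutation p = 0.292) and 0.597 (exact permutation p = 0.181).

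**Figure D5:**
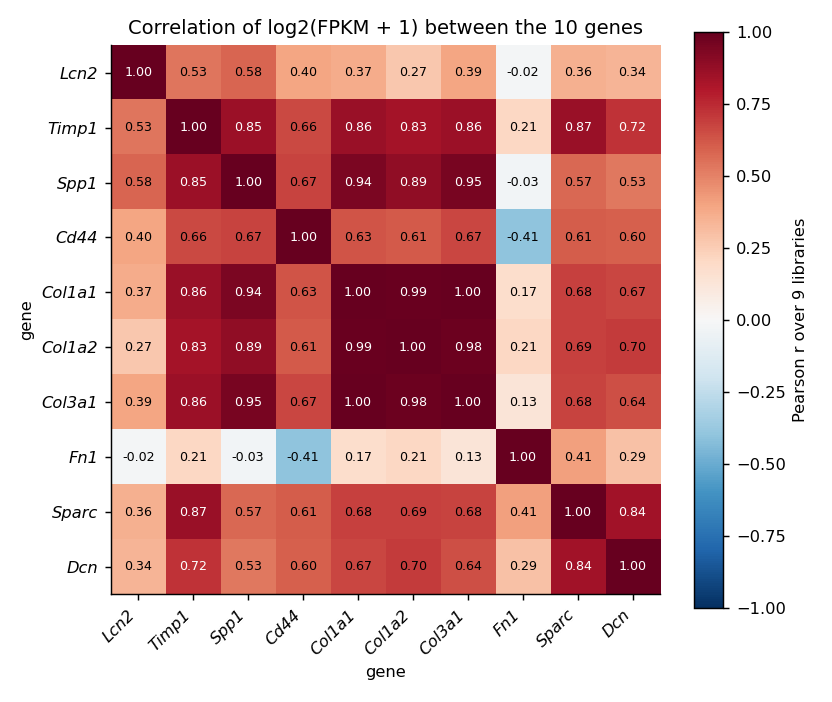
Pearson r of log2(FPKM + 1) over the 9 libraries for all pairs of the 10 genes, with no test. The block of Col1a1, Col1a2 and Col3a1 has r of 0.98 and above, Spp1 and Timp1 follow the block at 0.83 to 0.95, and the row of Fn1 runs from -0.405 to 0.413.

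The genes outside the set most like the mean standardized profile of the 3 collagens over the 9 libraries were ENSRNOG00000025001 (r = 0.980) and ENSRNOG00000004610 (r = 0.976). The first was at 3.95, 8.05 and 1.76 FPKM in PN libraries 3A, 6A and 7A, at 3.33, 1.61 and 3.37 FPKM in MCAO libraries 3B, 6B and 7A, and at 1.06, 1.36 and 1.09 FPKM in sham libraries 4B, 5B and 9A. Those most like the mean profile of the 4 injury-response genes were ENSRNOG00000003975 (r = 0.968), at 152 to 241 FPKM in PN, 120 to 188 FPKM in MCAO and 115.5 to 146 FPKM in sham, and ENSRNOG00000028016 (r = 0.964). The files and tables used here pair no symbol with these IDs.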

How the data were processed

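The authors deposited 1 table of FPKM values for 32883 rat Ensembl gene IDs in 9 libraries, per the file headers. Tools listed in the submitters' processing notes are StringTie 1.3.1, HISAT2, Bowtie2 2.2.8 and fastp 0.18.0. What each did, which genome build and annotation were used and whether counting used strand is not given in the sources used here. Columns were matched to samples by the code ending each name. The code 7A ends 2 titles, and there the start of the column name, shared with columns already matched, decided.

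The 10 genes and the lists were chosen with earlier results of these data known. Symbols of the 10 genes came with their IDs. The reference table paired 0 IDs with a symbol, so the 13 lists of other matrix and cell type genes could not be applied. The genes named were the 10 and, for the mean standardized profile of the collagens and of the injury-response genes, the 2 other genes with the highest Pearson r. 15051 genes with at least 1 FPKM in at least 3 libraries were tested across the transcriptome on log2(FPKM + 1), which understates changes of low genes. All 9 libraries entered 1 limma 3.58.1 fit (R 4.3.3) with a mean-variance trend and Benjamini-Hochberg adjustment, two-sided. Correlations had exact permutation tests over all pairings (Python 3.11.15, numpy 2.4.6). The fit was run on simulated data with known changes, and the recovery rates are not given here. Values were drawn independently for each gene, which leaves out shifts that genes of a library share. Relative depth was read from the steps of values under 0.15 FPKM. Alternatives were another pseudocount, filter, scaling, weights, covariate or block, the 6 libraries compared alone, and libraries left out. The comparison of all occlusion libraries with sham, the counts without overlap with a library left out, and correlations within the occlusion libraries were added after the values were seen. The counts without overlap over all libraries were not among the planned tests either.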

Additional observations from a re-analysis of the deposited data

How the results depend on the processing

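No gene of the set passed the adjusted threshold under any of the alternatives run in the 3 planned comparisons (547 recomputed differences, smallest adjusted p in limma 0.0919), and 39 of them had the opposite sign. The differences of the 3 collagens from sham were positive in 156 of 156 recomputed values and those of Spp1 in 53 of 53, the added comparison included. For the collagens, and for Spp1 in PN against sham, no libraries overlapped. Leaving out or weighting libraries, or another pseudocount or filter, could not turn those signs. These counts were thus largely fixed in advance and are no support. In 52 recomputed Pearson correlations the sign and the side of the adjusted threshold held. For Timp1 and Cd44 the adjusted p was 0.0728 by Pearson and 0.0492 by Spearman (exact permutation), and with 1 library left out the unadjusted Pearson p ran from 0.0395 to 0.127. Members at an unadjusted p under 0.05 with 1 library left out numbered 0 to 3 higher and 0 to 1 lower in PN against MCAO, 0 to 6 higher in MCAO against sham (6 without MCAO 6B, 5 without PN 7A, 0 without PN 3A, MCAO 3B, MCAO 7A or sham 5B) and 3 to 6 higher in PN against sham (3 without PN 6A). The share of all genes at this level was counted only in the main fit, so these counts cannot be set against it.

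The sign turned for the following log2 differences, and the cause was not tested. In PN against MCAO, array weights (6.19 on PN 7A, 0.345 on PN 3A) gave -0.27 for Lcn2, -0.45 for Timp1, -0.40 for Col1a1, -0.49 for Col1a2 and -0.30 for Col3a1. The code letter as a covariate gave -0.029 for Lcn2, -0.17 for Timp1 and -0.23 for Cd44. Leaving out PN 3A and sham 9A, whose column names start unlike those of their groups, gave -0.059 for Lcn2, 0.12 for Sparc and 0.048 for Dcn. In PN against sham, array weights gave -0.35 for Lcn2 and -0.35 for Dcn, the letter -0.15 for Lcn2, 0.35 for Fn1 and -0.46 for Dcn, and leaving out PN 3A and sham 9A -0.021 for Lcn2. In MCAO against sham leaving out those libraries gave 0.038 for Lcn2. For all occlusion libraries against sham, Lcn2 was -0.22 with array weights and -0.13 with the letter, and Fn1 -0.16 without PN 3A and sham 9A.

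With 1 library left out in turn, PN against MCAO ranged from -0.18 to 1.24 for Lcn2, -0.22 to 0.63 for Timp1, -0.10 to 0.89 for Cd44, -0.18 to 1.35 for Col1a1, -0.42 to 0.91 for Col1a2, -0.089 to 1.39 for Col3a1, -0.56 to 0.12 for Sparc and -1.06 to 0.048 for Dcn. MCAO against sham ranged from -0.68 to 0.70 for Lcn2. PN against sham ranged from -0.18 to 1.12 for Lcn2, -0.69 to 0.40 for Fn1 and -0.51 to 0.62 for Dcn. All occlusion libraries against sham ranged from -0.36 to 0.61 for Lcn2, -0.20 to 0.89 for Fn1 and -0.032 to 0.78 for Dcn.

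Over all genes tested, calls in PN against MCAO numbered 4 with no filter, 377 with array weights and 0 to 4 with 1 library left out. A replicate block on the shared numbers left 0 genes called in PN against MCAO (limma, smallest adjusted p = 0.134). Deviations of same-numbered PN and MCAO libraries correlated at 0.064, -0.402 and -0.16. The labels do not say what the numbers mark, and these values cannot settle whether they pair the samples. Calls in MCAO against sham numbered 3 with the 6 libraries compared, 2 without PN 3A and sham 9A and 0 to 3 with 1 library left out. Calls in PN against sham numbered 5 with array weights, 1 without PN 3A and sham 9A and 1 to 3 with 1 library left out. Without the number of reads, what depth limits could not be computed.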
